A study of Arabidopsis thaliana with 12 samples.

Results

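The genes described here are the neighbours of *ARF2* (AT5G62000) on chromosome 5 of *Arabidopsis thaliana*, the gene mutated in the *arf2-6* line. They are the probe sets paired with a single gene whose locus code lies from AT5G61450 to AT5G62550, with *ARF2* itself and 2 other genes of that window, AT5G62350 and AT5G62360, left out by name. Of 22746 probe sets on the array other than controls, 52 met this rule. They stand for 51 genes, since AT5G62440 has 2 probe sets, with 28 probe sets below *ARF2* in locus code and 24 above it. The gene table used for names and order lists 113 coding genes in the same window, of which 46.9% have a single-gene probe set. Arabidopsis locus codes follow the order of genes along a chromosome and normally rise by 10 from one gene to the next, so distances from *ARF2* are counted in such steps, from -55 to 55.

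The 12 arrays were made from total RNA of whole light-grown seedlings, in 4 groups of 3. WT_control and WT_IAA were the Columbia wild type, and arf2-6_control and arf2-6_IAA were the *arf2-6* mutant in the Columbia ecotype. The liquid cultures, with 1.5% sucrose and days of 16 h light and 8 h dark, were 7 days old when ethanol (control) or 5 µM of the natural auxin indole-3-acetic acid (IAA) was added for 2 h at 24 °C. The labels give 1 mutant allele and do not describe its lesion. An effect of that lesion and any other difference between these lines near the locus therefore cannot be told apart.

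*ARF2* encodes an auxin response factor, a DNA-binding protein that represses auxin-responsive genes, and plants lacking it make larger seeds and organs and flower and senesce late. A mutant line also carries the chromosome stretch in which its lesion lies, so the genes on either side of a mutated locus differ from distant genes in being inherited together with it. The question put to the data was how the difference between *arf2-6* and wild type runs along gene order, with and without auxin.

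The values are log2 signals, 1 per probe set and array. No value lies under 5.64 log2 (a signal of 50), the lowest value on each array, which 42.5 to 43.2% of probe sets held. Array medians ranged from 6.16 to 6.22 log2. The labels do not say whether replicates came from separate cultures, so p-values measure a spread between samples that may be technical. *ARF2* was paired with 0 probe sets, so its transcript did not check the labels. Of the listed seedling markers, 3 of 6 leaf and 2 of 5 root markers were paired with a single-gene probe set, and 0 of 5 pollen and seed markers were. In WT_control the leaf gene *RCA*, the activase of Rubisco, stood at 12.43 log2 and the root hair expansin gene *EXPA7* at 6.95. The arrays WT_control 3 and arf2-6_control 2 shared their deviation from the group means (r = 0.633 over 14215 probe sets, which are not independent), and the counts of called genes are given with and without both.

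Several neighbours of *ARF2*, most of them on its upper side, had higher signals in *arf2-6* than in wild type. Averaged over both treatments, 10 of the 52 probe sets were called higher (limma, two-sided, Benjamini-Hochberg adjusted p under 0.05 over all 14215 probe sets tested) and 0 lower. They were 28.6% of the 35 flanking probe sets tested, while 7.15% of the tested array was called higher in this contrast and 8.72% lower. The 10 lie between AT5G61990, 1 step below *ARF2*, and AT5G62200, 20 steps above it. Their averaged differences ran from 0.38 log2 for *CXE20*, a carboxylesterase gene, to 1.21 for *PRH75*, which encodes a DEAD-box RNA helicase. Of the 52 probe sets, 17 were at the lowest value throughout the 12 arrays, with no measurable difference, and the other 35 were tested. Of those 35, 2 held the lowest value throughout 1 genotype, and 25 exceeded it on all 12 arrays. Without WT_control 3 and arf2-6_control 2, 10 were called higher and 2, AT5G61510 and AT5G61530, were called lower.

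**Figure D1:**
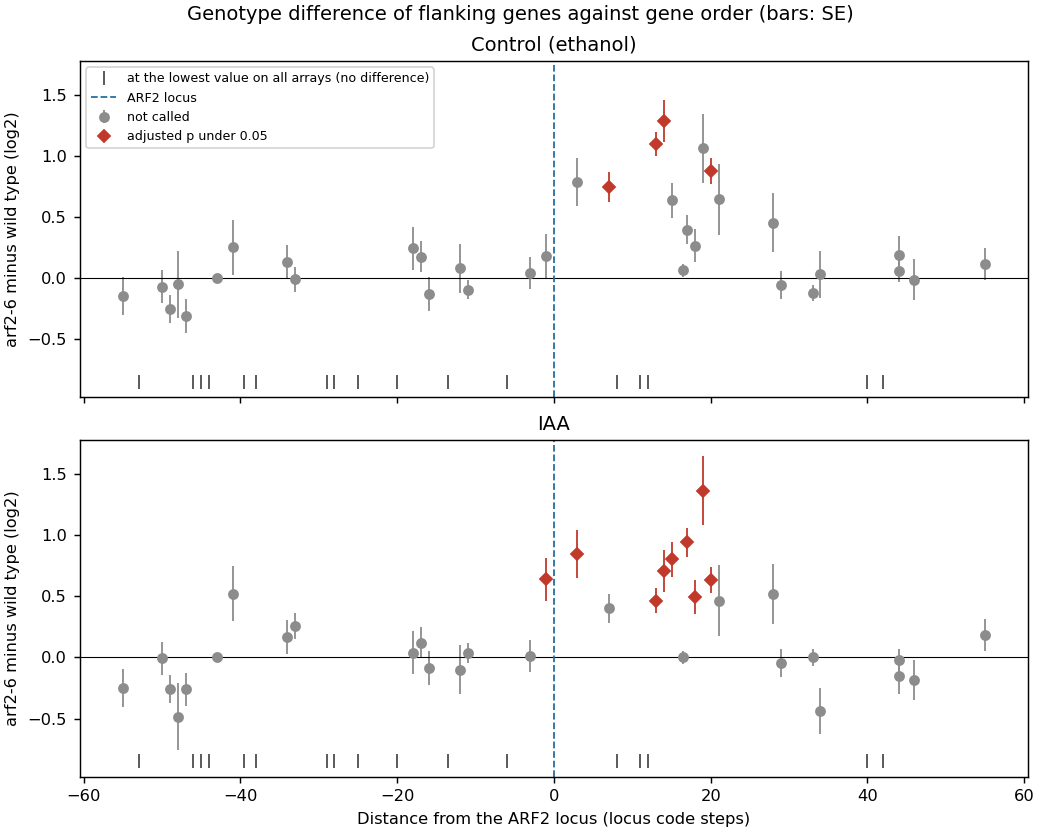
Log2 difference between *arf2-6* and wild type (vertical axis, points with SE) of each flanking probe set against its distance from the *ARF2* locus in locus code steps (horizontal axis), in control seedlings (upper panel) and IAA-treated seedlings (lower panel). Red diamonds mark adjusted p under 0.05 and short ticks mark the 17 probe sets with no value above the lowest. The called genes lie 7 to 20 steps above the locus in controls, and between 1 step below and 20 steps above it with IAA.

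Directly below *ARF2* the member at 1 step was called with IAA and averaged but not in controls, and those at 3 and 6 steps were not called. AT5G61940, 6 steps below, had the lowest value on every array. AT5G61970, 3 steps below and related to the signal recognition particle, measured 9.11 ± 0.22 log2 in WT_control and 9.15 ± 0.23 in arf2-6_control (SD, n = 3), and 8.99 ± 0.09 against 9.01 ± 0.09 with IAA. Its averaged difference was 0.03 log2 (SE 0.09, adjusted p = 0.88), and the groups overlapped. AT5G61990, 1 step below, encodes a pentatricopeptide repeat protein, of a family that acts on organelle RNA. It read 6.33, 6.05 and 6.35 log2 in WT_control, 6.61, 6.02 and 6.65 in arf2-6_control, 6.24, 6.23 and 6.59 in WT_IAA and 6.92, 6.86 and 7.19 in arf2-6_IAA. The 3 arf2-6_IAA arrays stood above all wild-type arrays, while arf2-6_control 2 lay below every one of them. In controls the difference was 0.18 log2 (SE 0.18, adjusted p = 0.73) and the groups overlapped. It was 0.64 log2 with IAA (SE 0.18, adjusted p = 0.048) and 0.41 averaged (SE 0.13, adjusted p = 0.048). Both calls are marginal, since leaving out any 1 array other than WT_IAA 3 and arf2-6_control 2 ended them, at adjusted p of up to 0.19 with IAA and up to 0.12 averaged.

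On the upper side, the nearest measured genes were AT5G62030 at 3 steps and *IQD23* at 7, and the next member, AT5G62080 at 8, lay at the lowest value throughout. AT5G62030, whose product belongs to the diphthamide synthesis enzymes that modify a translation elongation factor, read 5.69, 5.70 and 5.64 log2 in WT_control and 6.94, 5.92 and 6.54 in arf2-6_control. With IAA it read 6.00, 5.75 and 6.12 in wild type and 6.83, 6.82 and 6.76 in *arf2-6*. Within each treatment the mutant arrays did not overlap the wild type. The lowest of them, arf2-6_control 2, lay within the range of the WT_IAA arrays. The difference was 0.84 log2 with IAA (1.80-fold, SE 0.20, adjusted p = 0.026) and 0.82 averaged (adjusted p = 0.0039). The IAA call ended without WT_IAA 1 or 2 or any 1 of the arf2-6_IAA arrays, at adjusted p of up to 0.12. In controls it measured 0.79 (adjusted p = 0.089), and 1.04 (adjusted p = 0.017) without WT_control 3 and arf2-6_control 2.

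*IQD23* encodes a member of the IQ67-domain family, which binds calmodulin. Its values were 6.42, 6.29 and 6.28 log2 in WT_control against 7.10, 7.07 and 7.06 in arf2-6_control, and 6.08, 6.13 and 6.55 in WT_IAA against 6.71, 6.67 and 6.59 in arf2-6_IAA. All 6 mutant arrays stood above all 6 wild-type arrays. The difference was 0.75 log2 in controls (1.68-fold, SE 0.12, adjusted p = 0.021), 0.40 with IAA (adjusted p = 0.062) and 0.57 averaged (adjusted p = 0.0019). The control call ended without WT_control 1 or 2 or arf2-6_control 1 or 3, at adjusted p of up to 0.14 over all alternatives.

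The neighbouring genes AT5G62130, AT5G62140 and AT5G62150, at 13 to 15 steps, were higher together. AT5G62130, of the Per1-like family that remodels lipid anchors of membrane proteins, read 5.64, 6.07 and 5.99 log2 in WT_control and 6.96, 7.11 and 6.93 in arf2-6_control. With IAA it had the lowest value on each of the 3 wild-type arrays and lay at 6.07, 6.10 and 6.15 in *arf2-6*. The lowest mutant array lay just above the highest wild-type array. It was 2.14-fold higher in control mutants (SE 0.10 log2, adjusted p = 8.3e-04) and at least 1.38-fold higher with IAA (adjusted p = 0.020), a lower bound because WT_IAA was at the lowest value. The IAA call ended without any 1 of the 6 IAA arrays, at adjusted p of up to 0.082. The control call held without each single array, but ended in a limma fit on the 6 control arrays alone (adjusted p = 0.13).

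AT5G62140, at 14 steps, read 5.70, 5.96 and 6.02 log2 in WT_control and 7.30, 7.26 and 6.98 in arf2-6_control, with WT_IAA at the lowest value and arf2-6_IAA at 6.80, 6.08 and 6.18. The genotypes did not overlap on any of the 12 arrays. It was 2.44-fold higher in controls (log2 1.29, SE 0.17, adjusted p = 0.0089) and at least 1.63-fold higher with IAA (adjusted p = 0.029). The control call ended without WT_control 1 or arf2-6_control 1 (highest adjusted p 0.092 over all alternatives), and the IAA call without any IAA array other than arf2-6_IAA 2 (up to 0.11).

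AT5G62150, at 15 steps, encodes a protein with a LysM domain, a fold that binds chitin-like sugars. It read 5.96, 6.33 and 5.85 log2 in WT_control, 5.98, 5.68 and 5.64 in WT_IAA, 6.57, 6.74 and 6.73 in arf2-6_control and 6.54, 6.42 and 6.76 in arf2-6_IAA. Every mutant array was above every wild-type array. The difference was 0.80 log2 with IAA (1.75-fold, SE 0.14, adjusted p = 0.0079), 0.64 in controls (adjusted p = 0.064) and 0.72 averaged (adjusted p = 0.0015). Its IAA and averaged calls held under every alternative tried.

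**Figure D2:**
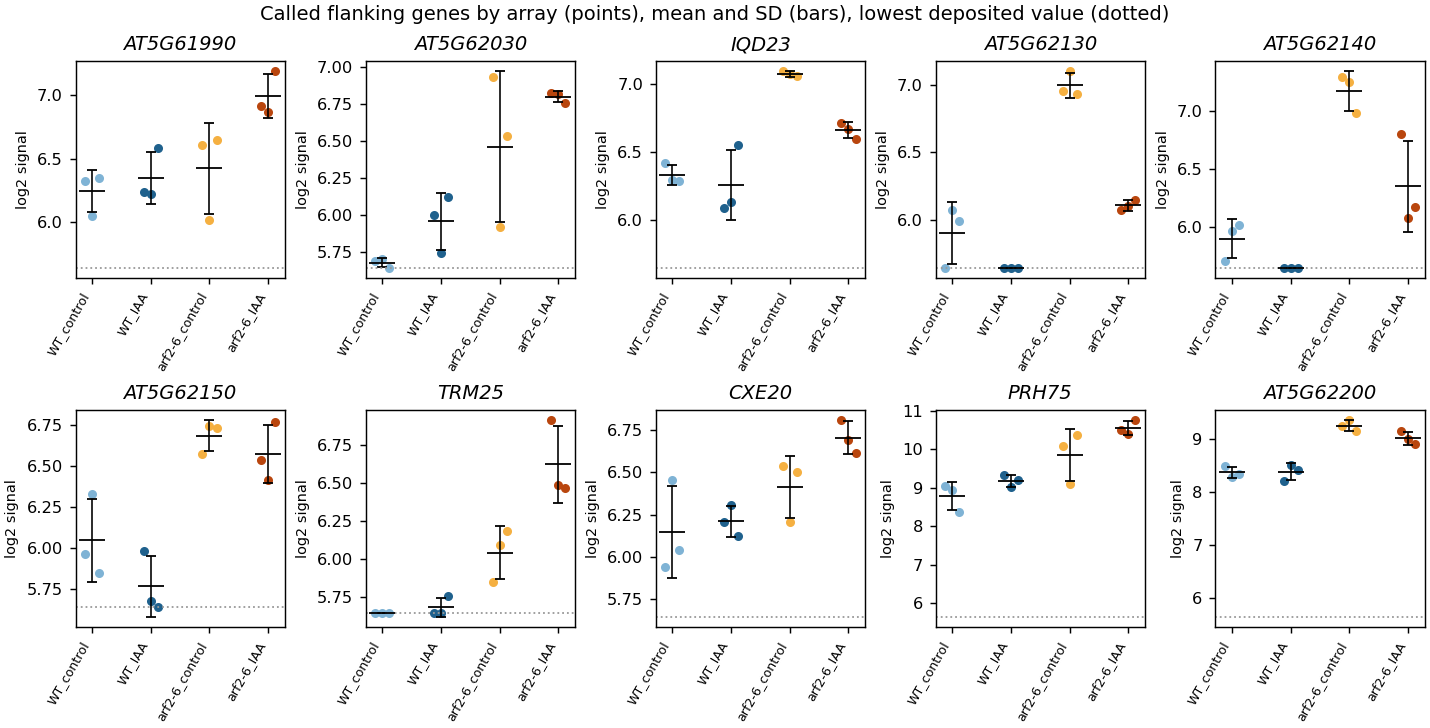
Log2 signal (vertical axis) of the 10 flanking genes called higher in *arf2-6* averaged over treatments, with a point for each of the 3 arrays per group, the group mean and SD as bars and the lowest deposited value of 5.64 as a dotted line. *AT5G62200* and *PRH75* lie well above the lowest value, *TRM25* lies at it on 5 of 6 wild-type arrays, and arf2-6_control 2 is the low point of *PRH75* at 9.08.

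The last called genes, at 17 to 20 steps, were *TRM25*, *CXE20*, *PRH75* and AT5G62200. *TRM25*, of a family of microtubule-linked proteins that share a TON1 recruiting motif, lay at the lowest value on 5 of 6 wild-type arrays and at 5.75 log2 on WT_IAA 3. In *arf2-6* it read 5.85, 6.09 and 6.18 in controls and 6.91, 6.49 and 6.47 with IAA, above every wild-type array. With IAA the difference was 0.94 log2 (SE 0.12, adjusted p = 0.0016). Since 2 of 3 WT_IAA arrays lay at the lowest value, this is a bound of at least 1.92-fold. In controls it was at least 1.32-fold (adjusted p = 0.13). The averaged difference, a fitted value for the same reason, was 0.67 log2 (adjusted p = 8.9e-04).

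*PRH75* read 9.05, 8.94 and 8.36 log2 in WT_control and 10.08, 9.08 and 10.37 in arf2-6_control. With IAA it read 9.33, 9.02 and 9.19 in wild type and 10.48, 10.40 and 10.75 in *arf2-6*. Within each treatment the genotypes did not overlap, although arf2-6_control 2 lay within the range of the WT_IAA arrays. The difference was 1.37 log2 with IAA (2.58-fold, SE 0.28, adjusted p = 0.016) and 1.21 averaged (2.32-fold, adjusted p = 0.0033). The IAA call ended without WT_IAA 2, arf2-6_IAA 1 or arf2-6_IAA 3, at adjusted p of up to 0.084 over all alternatives. In controls the difference was 1.06 (adjusted p = 0.11), and 1.23 (adjusted p = 0.010) without WT_control 3 and arf2-6_control 2.

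AT5G62200, at 20 steps, belongs to a family named for the embryo-specific protein ATS3. It read 8.49, 8.29 and 8.34 log2 in WT_control against 9.24, 9.36 and 9.16 in arf2-6_control, and 8.21, 8.52 and 8.42 in WT_IAA against 9.15, 9.01 and 8.91 in arf2-6_IAA. All mutant arrays lay above all wild-type arrays. It was 1.84-fold higher in controls (log2 0.88, SE 0.11, adjusted p = 0.0053) and 1.55-fold with IAA (0.64, adjusted p = 0.0059), and each call held without any single array. The control call ended in a limma fit on the 6 control arrays alone (adjusted p = 0.12). *CXE20* read 5.94, 6.46 and 6.04 in WT_control, 6.53, 6.20 and 6.50 in arf2-6_control, 6.20, 6.30 and 6.12 in WT_IAA and 6.81, 6.69 and 6.61 in arf2-6_IAA. Its control groups overlapped. It differed by 0.50 log2 with IAA (SE 0.14, adjusted p = 0.048) and 0.38 averaged (adjusted p = 0.023), and 5 single arrays ended the averaged call, namely WT_control 1, WT_IAA 3, arf2-6_control 1, arf2-6_control 3 and arf2-6_IAA 1 (up to 0.059). The IAA call held without WT_control 1, WT_control 2 and arf2-6_control 2, and without any other single array it ended (up to 0.15). It also ended with no filter (adjusted p = 0.11) and with no trend in the variance prior (0.050).

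The stretch from AT5G61990 to AT5G62200 spans 24 coding genes of the gene table, *ARF2* included. It holds 14 of the 52 probe sets. Of these, 3 never rose above the lowest value, AT5G62080, AT5G62110 and the response regulator gene *RR23*, and 11 were tested. The member of the 11 that was not called was *AGL42* (also *FYF*), a MADS-box gene that delays floral senescence, which lay at the lowest value on 11 of 12 arrays. The ends of the stretch were set after its values were seen, so this count is a description.

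Beyond it no probe set was called. AT5G62210 at 21 steps, next to its relative AT5G62200, measured 6.24 ± 0.07 against 6.88 ± 0.66 log2 in controls, with arf2-6_control 1 at 7.64 and the other mutant arrays at 6.50 and 6.51. Its averaged difference was 0.55 (SE 0.21, adjusted p = 0.092). AT5G62280 at 28 steps measured 0.49 (SE 0.17, adjusted p = 0.079). The 7 further tested probe sets, from AT5G62290 to AT5G62550, lay between -0.20 and 0.15 log2 and none was called. The last member, AT5G62550 at 55 steps, measured 0.15 (adjusted p = 0.30), with 7 of 12 arrays at the lowest value.

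By bands of distance, fixed in locus code steps with earlier results of these data known, the 8 tested probe sets at 11 to 20 steps above *ARF2* had a median averaged difference of 0.74 log2 and 7 were called higher. The 2 tested at 1 to 10 steps above had 0.69 and both were called. At 21 to 35 and at 36 to 55 steps above, the medians were -0.05 over 5 and 0.02 over 4, with 0 called. Below *ARF2* the medians were 0.22 over 2 at 1 to 10 steps, -0.01 over 5 at 11 to 20, 0.14 over 2 at 21 to 35 and -0.20 over 7 at 36 to 55, with AT5G61990 called. On the lower side as a whole 8 of 16 differences were positive, against 15 of 19 on the upper side and 52.4% over all tested probe sets, whose median was 0.01.

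The lower side held *ATG3*, an enzyme that attaches a ubiquitin-like protein to lipid in autophagy, and *GUT1*, a glycosyltransferase of xylan synthesis, at averaged differences of -0.04 and -0.11 log2. Also there were AT5G61880 (*PAM16L*), related to a mitochondrial protein import subunit, at -0.01, and AT5G61590 (*DEWAX*), an AP2/ERF factor that represses wax synthesis genes, at 0.39 (adjusted p = 0.13). The first member, AT5G61450 at 55 steps below, measured -0.20 (adjusted p = 0.25). AT5G61510 lay lower on all 6 mutant arrays than on any wild-type array, at -0.25 (SE 0.08, adjusted p = 0.056), and AT5G61530 measured -0.29 (adjusted p = 0.069). Without WT_control 3 and arf2-6_control 2 these 2 genes passed the threshold, at -0.31 (adjusted p = 0.034) and -0.39 (adjusted p = 0.0088).

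**Figure D3:**
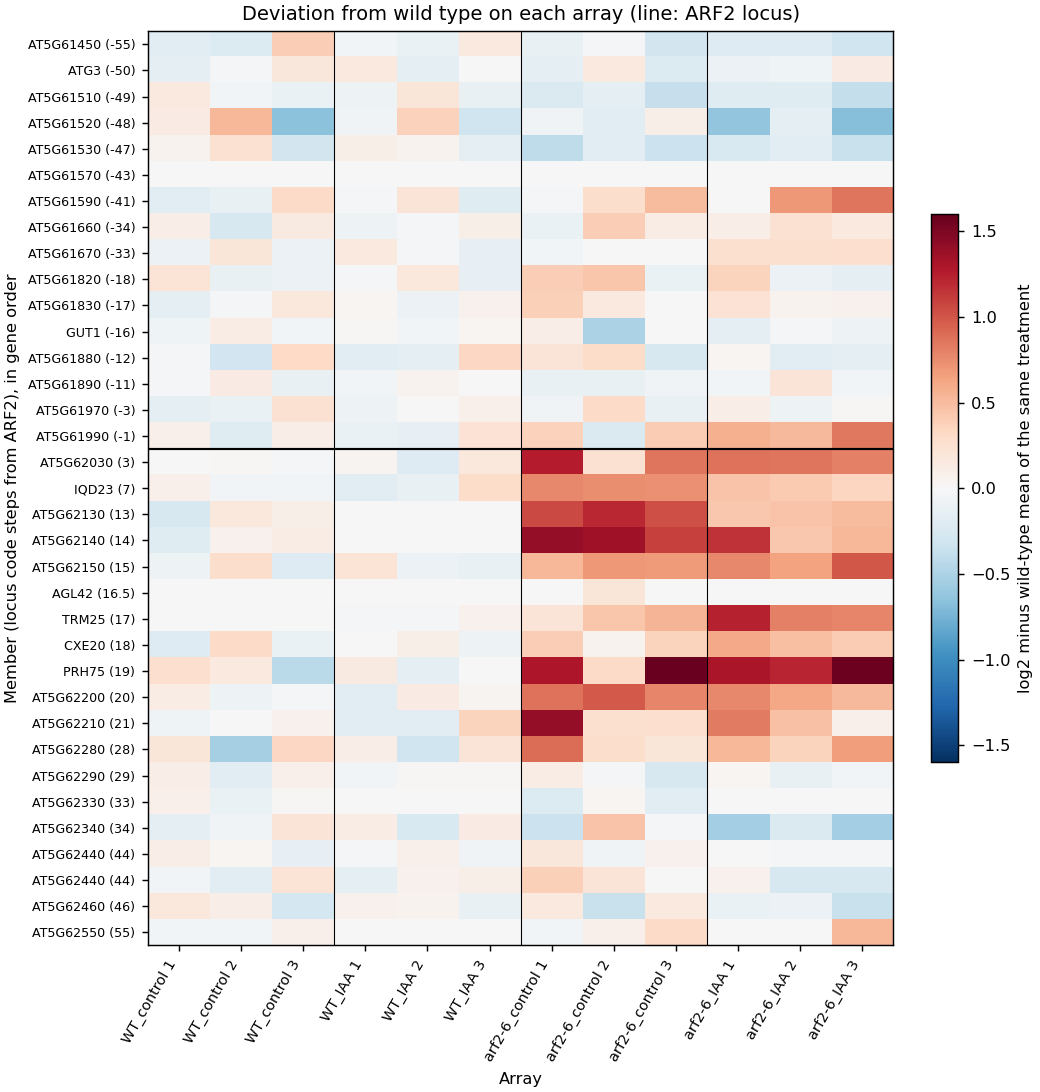
Log2 signal of each of the 35 tested flanking probe sets (rows, in gene order with locus code steps from *ARF2* in parentheses) minus the wild-type mean of the same treatment, on each of the 12 arrays (columns). The rows from AT5G61990 to AT5G62200, *AGL42* apart, are red on most or all of the 6 *arf2-6* arrays, with arf2-6_control 2 paler for AT5G62030 and *PRH75*. Past the stretch 2 uncalled rows, AT5G62210 and AT5G62280, are also positive on all 6. Below *ARF2*, the rows of AT5G61450, AT5G61510 and AT5G61530 are negative on all 6.

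The windows of equal length on either side held fewer genes called higher. From AT5G60340 to AT5G61440, 30 of 46 single-gene probe sets were tested, with 1 called higher, 2 lower and a median averaged difference of 0.01 log2. From AT5G62560 to AT5G63660, 47 of 58 were tested, with 1 higher, 4 lower and a median of -0.03. Among the other 1793 tested single-gene probe sets of chromosome 5, 110 were called higher and 149 lower, and the highest averaged difference was 0.89, under those of *PRH75* and AT5G62140 (1.00, a fitted value). Counted along locus codes over the 5 nuclear chromosomes, the longest run of consecutive tested single-gene probe sets called higher was AT5G61990 to AT5G62150, with 6. The next was *TRM25* (AT5G62170) to AT5G62200, with 4, and *AGL42* parts the pair. Probe sets paired with no gene (8730 of 22746) or with several (503) have no place in this order, so a run can pass over them. Outside the window 1 run of 3 and 27 runs of 2 were called higher, and the longest called lower held 3. A running median over 9 neighbouring probe sets reached 0.72 log2 at AT5G62150 and at most 0.28 on chromosome 5 outside the window. These are descriptions made after the values were seen, with no test of the run itself.

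**Figure D4:**
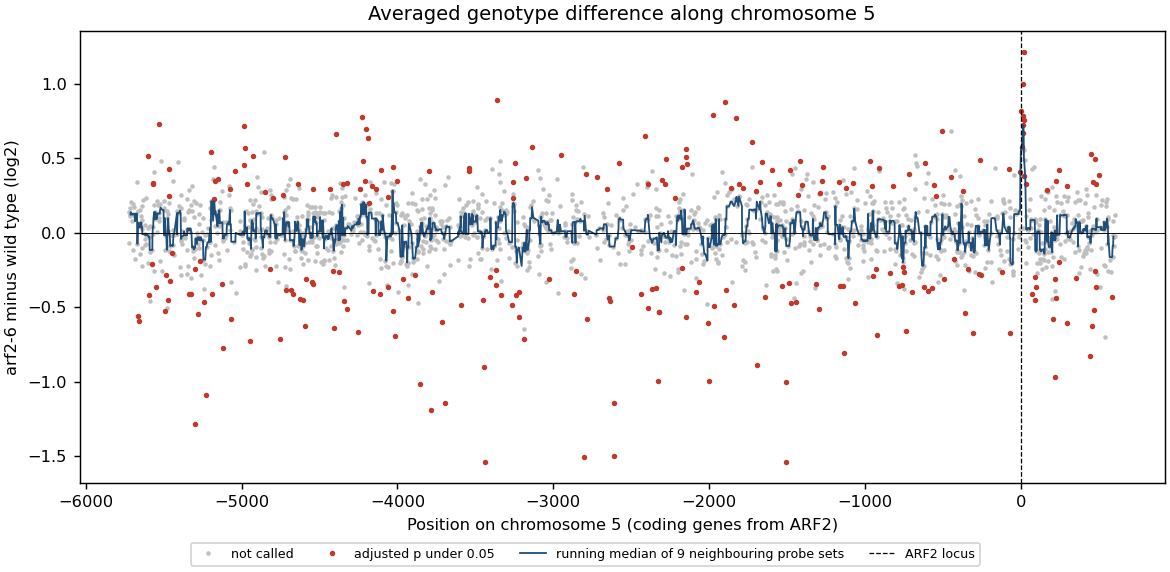
Averaged log2 difference between *arf2-6* and wild type (vertical axis) of tested single-gene probe sets along chromosome 5, by position in coding genes from *ARF2* (horizontal axis), with called probe sets in red and the running median of 9 neighbours as a line. The line rises to 0.72 at AT5G62150, 15 coding genes above the *ARF2* locus, and stays at or under 0.28 outside the window.

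In control seedlings 4 of the 35 tested (11.4%) were called higher (*IQD23*, AT5G62130, AT5G62140 and AT5G62200) and 0 lower. Of the tested array, 0.352% was called higher and 0.507% lower. The count was 2 without WT_control 1 and 2 without arf2-6_control 1. Without WT_control 3 and arf2-6_control 2 it was 7, of which 6 were higher and AT5G61530 lower. In a limma fit on the 6 control arrays alone it was 0, with a lowest adjusted p of 0.092 and 8 at an unadjusted p under 0.05. All 3 mutant control arrays exceeded all 3 wild-type control arrays for 9 of the 35 tested, against 7.23% of all tested probe sets. In IAA-treated seedlings 9 of the 35 (25.7%) were called higher and 0 lower, where 2.93% of the tested array was called higher and 5.86% lower. The count fell to 4 when WT_IAA 1 was left out and to 3 when WT_IAA 2 was. Leaving out arf2-6_IAA 1, 2 or 3 gave 3, 5 or 3 calls, and testing all 22746 probe sets with no filter gave 4. Without WT_control 3 and arf2-6_control 2 it was 9. The mutant arrays exceeded the wild type for 13 of the 35 with IAA, against 17.8% of all tested probe sets. On all 12 arrays together they did for 6 of the 35, against 1.94%. Of the genes called in either treatment, 3 were called in both, 1 in controls alone and 6 with IAA alone, and each of these 10 had a positive difference in both treatments.

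A sign of RNA length, the mean excess of 3' over 5' control signal in 6 probe set pairs, ranged from 0.51 to 0.62 log2 in WT_IAA and from 0.42 to 0.49 in arf2-6_IAA, with no overlap. In controls it was 0.41 to 0.59 and 0.45 to 0.67, which did. The summed signal of the 2 root markers was 219 to 365 in WT_control and 152 to 199 in arf2-6_control, and 264 to 424 in WT_IAA and 116 to 141 in arf2-6_IAA. That of the 3 leaf markers was 13331 to 16091 and 14114 to 16010 in controls, and 14533 to 15363 and 15569 to 16038 with IAA. The part of RNA length and of tissue make-up in the flanking differences was not tested, and in bulk seedlings fewer cells of a type and less RNA per cell cannot be told apart.

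The share of these genes called for auxin was near that of the whole array, at 3 of 35 tested probe sets in wild type (8.57%, against 8.4%) and 4 of 35 in *arf2-6* (11.4%, against 8.51%). The largest response was that of AT5G62280, which read 7.38, 6.66 and 7.51 log2 in WT_control and 9.81, 9.40 and 9.92 in WT_IAA. In *arf2-6* it read 8.08, 7.46 and 7.37 in controls and 10.25, 10.06 and 10.38 with IAA. The treated and untreated arrays did not overlap in either genotype. It rose 5.75-fold in wild type (log2 2.52, SE 0.24, adjusted p = 4.8e-05) and 6.03-fold in *arf2-6* (log2 2.59, adjusted p = 5.2e-05), and both calls held under every alternative. The interaction, the response in *arf2-6* minus that in wild type, was 0.07 log2 (SE 0.34).

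In wild type 1 gene was called higher with IAA and 2 were called lower. AT5G61590 (*DEWAX*) fell from 8.72 ± 0.27 to 7.82 ± 0.20 log2 (difference -0.90, SE 0.22, adjusted p = 0.030). The call ended without WT_control 2 or 3 or any of the 3 WT_IAA arrays, at adjusted p of up to 0.15. It also ended with WT_control 3 and arf2-6_control 2 left out together (-0.74, adjusted p = 0.15) and with no filter (adjusted p = 0.094). In *arf2-6* AT5G61590 also fell with IAA, with no overlap, but was not called (-0.63, SE 0.22, adjusted p = 0.13). AT5G62330 was at 5.95 ± 0.09 in WT_control and never above the lowest value in WT_IAA, at least 1.24-fold lower (adjusted p = 0.015). The call ended without WT_control 1, WT_IAA 1 or WT_IAA 2 (up to 0.056). In *arf2-6* AT5G62330 was at 5.83 ± 0.14 in controls and also never above the lowest value with IAA. That fall, at least 1.14-fold, was not called (adjusted p = 0.14). The count of 3 was 1 without WT_IAA 1, 1 without WT_IAA 2, 2 without WT_control 3, 2 without WT_IAA 3 and 2 without WT_control 3 and arf2-6_control 2 together. Of the 10 genes higher in *arf2-6*, 0 were called for IAA in wild type, where 8.4% of the array was called. Such a count in 10 genes cannot be told apart from that share. AT5G62130 and AT5G62140 lay at the lowest value on all 3 WT_IAA arrays, as did *TRM25* on all 3 WT_control arrays. Their change in wild type could not be measured in full.

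In *arf2-6* 2 were called higher with IAA and 2 lower, and 3 in all without WT_control 3 and arf2-6_control 2. The 4 were AT5G62280 and 3 of the genes higher in the mutant, which did not move one way. AT5G62130 fell from 7.00 ± 0.09 to 6.11 ± 0.04 log2 (difference -0.89, SE 0.10, adjusted p = 2.1e-04). AT5G62140 fell from 7.18 ± 0.17 to 6.35 ± 0.39 (-0.83, SE 0.17, adjusted p = 0.011), and its call ended without arf2-6_IAA 3, without WT_control 3 and arf2-6_control 2 together (adjusted p = 0.058) and in a fit on the *arf2-6* arrays alone (adjusted p = 0.050). *TRM25* rose from 6.04 ± 0.17 to 6.62 ± 0.25 (0.58, SE 0.12, adjusted p = 0.0095), a call that ended in the same fit (adjusted p = 0.060).

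**Figure D5:**
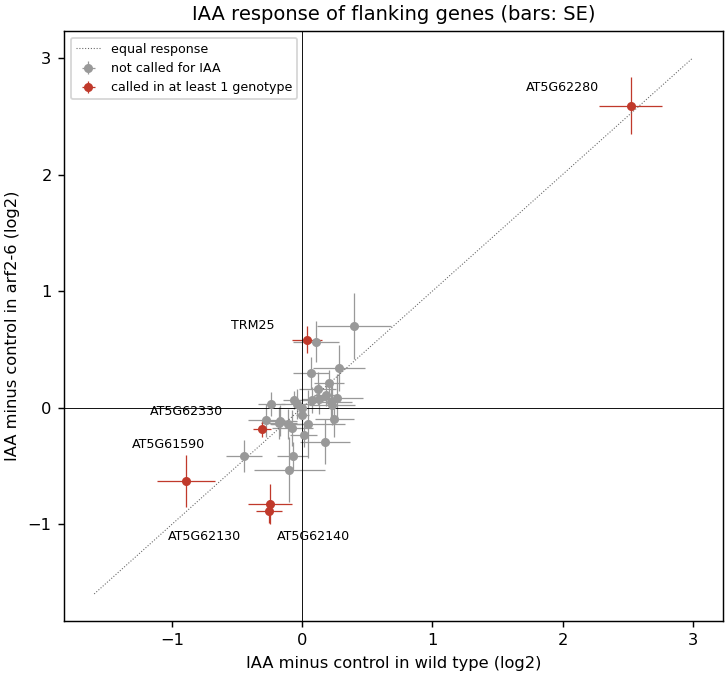
Log2 response to IAA in *arf2-6* (vertical axis) against that in wild type (horizontal axis) for the 35 tested flanking probe sets, with SE bars and a dotted line of equal response. AT5G62280 lies near the line at 2.52 and 2.59, and AT5G62130, AT5G62140 and *TRM25* lie off it.

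Whether the auxin response differed between the genotypes was tested by the interaction. By limma 0 of the 35 tested were called, where 0.113% of the tested array was called. The count was also 0 without WT_control 3 and arf2-6_control 2. At an unadjusted p under 0.05 there were 3, AT5G62130 (-0.63 log2, SE 0.14, adjusted p = 0.33), AT5G62140 (-0.58, SE 0.24, adjusted p = 1) and *TRM25* (0.55, SE 0.17, adjusted p = 0.82). WT_IAA lay at the lowest value for AT5G62130 and AT5G62140, as did WT_control for *TRM25*, so a wild-type response under that value could not be measured and these are fitted values.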

How the data were processed

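The log2 signals of 12 Affymetrix arrays, with 22810 probe sets including 64 AFFX controls, were used as the authors deposited them. Not given in the sources used here are their summarisation and scaling. The labels gave groups and replicate numbers. Probe sets were named through the platform annotation and a gene table of assembly TAIR10.1, used for names and gene order, and 13436 of 13513 single-gene probe sets matched it. No gene sequence is shown.

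One limma model (limma 3.58.1, R 4.3.3, a mean per group, 12 arrays, variance trend) was fitted over the 14215 probe sets above the lowest value on at least 1 array. It was also run on simulated arrays without shared deviations, so that run does not cover the sharing seen between WT_control 3 and arf2-6_control 2. Differences are *arf2-6* minus wild type or IAA minus control, values are mean ± SD with n = 3, and a comparison with a group whose arrays, or 2 of 3, hold the lowest value gives "at least N-fold". The number of arrays limits the precision. Named genes were all members called between genotypes or for the interaction, the 5 largest called per direction for each IAA effect, the 3 nearest to *ARF2* on each side and the first and last. Others named were chosen after their values were seen. Members, lists and alternatives were chosen with earlier results of these data known.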

Additional observations from a re-analysis of the deposited data

How the results depend on the processing

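Alternatives changed the low-value filter, the scaling, the variance prior, the arrays in the fit, or used the replicate number as a block. Over 590 refits of the 30 single-gene calls named above, 0 reversed direction, 88 lost significance, and 14 calls held throughout. For the averaged genotype difference, 10 flanking probe sets were called, all higher, and 8 to 11 without single arrays. Lower calls appeared without WT_control 3 (9 higher, 2 lower), without arf2-6_control 2 (10 higher, 1 lower), without both (10 and 2) and with no variance trend (10 and 1). In controls, 4 were called, 2 to 6 without single arrays, 7 without WT_control 3 and arf2-6_control 2, and 0 in a fit on the 6 control arrays alone, where 8 had an unadjusted p under 0.05 and 2 probe sets of the whole array were called against 122. That fit has fewer arrays. With IAA, 9 were called, 3 to 9 without single arrays and 4 with no filter, where 648 of 22746 probe sets were called against 1249 of 14215. For IAA in wild type, 3 were called, 1 to 4 without single arrays, and in *arf2-6* 4, with 3 to 5. With the replicate number as a block the counts were 4 in controls, 8 with IAA, 13 averaged (11 higher and 2 lower), 3 and 5 for IAA in wild type and *arf2-6*, and 0 for the interaction. The IAA call of *CXE20* also ended in that blocked fit (adjusted p = 0.072). Of 18 same-numbered pairs of arrays, 7 deviated together with r over 0.1, and the numbers were not taken as pairs. For same-numbered control and IAA arrays of the same genotype, r was -0.08, 0.31 and 0.49 in wild type and 0.29, 0.03 and 0.30 in *arf2-6*. Pairing within a genotype was not modelled, since the block joined a number across both genotypes. If such pairs shared a culture, which the labels do not say, the averaged contrast holds fewer independent samples than arrays. The cause of each lost call was not tested. Many of these genes lie near the lowest value, which limits how small a wild-type level can be measured.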
